A study of Mus musculus with 16 samples.

Results

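Gnat2, Opn1sw, Gnb3 and Rxrg, 4 genes known from cone photoreceptors, were followed across arrays of mouse retina and cortex. They were chosen by symbol, as the probe sets whose platform annotation names exactly 1 gene and that gene is on the list. The rule found 1 probe set for each gene, which is 4 of the 12422 probe sets tested and 4 of the 8251 genes with a single-symbol probe set. The study hybridised total RNA to 1-colour oligonucleotide arrays, with about 10 µg of RNA per array, to assess variation between replicates and between sites. Retina RNA came from adult C57/B6 mice, as a pool of 350 animals in the descriptions of the first-site samples. Cortex RNA came from mice of postnatal day 1, as a pool of 19 animals, and the strain is given as C57/B6 in the sample descriptions but as Swiss-Webster in the design text. The first site ran 5 arrays of each tissue. Site 2 ran 3 arrays of each tissue, labelled as technical replicates, and their sample labels give no number of animals or strain. Per the design text, all samples came from 2 RNA pools, a retina pool and a cortex pool. No group carried a treatment or an engineered allele. Retina and cortex therefore differed in organ and age at once, and possibly in strain, and these cannot be told apart.

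Cones are the photoreceptors of daylight and colour vision, and in the mouse retina they are far outnumbered by rods. A cone opsin that absorbs light activates the cone form of transducin, a G protein of an alpha, a beta and a gamma subunit. Transducin switches on a phosphodiesterase, cyclic GMP falls, and the channels it holds open close. Opn1sw encodes the short-wavelength cone opsin, Gnat2 the cone transducin alpha subunit, and Gnb3 the beta subunit paired with it, which is also found in ON bipolar cells. Rxrg encodes retinoid X receptor gamma, a nuclear receptor that pairs with other nuclear receptors. It is found in cones and also in striatal neurons, the oligodendrocyte lineage and skeletal muscle.

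The upstream sequences of the members are shown first, because Gnat2 and Opn1sw were both far higher in retina while Rxrg was not. Of the 4 members, 3 were found in the RefSeq promoter table of build GRCm38.p6, and Gnb3 was not. Each sequence is the 250 bases before an annotated start, read 5′ to 3′ on the gene's strand. It was searched on both strands for TAATCC (the core site of the photoreceptor homeodomain factor Crx), CANNTG (the E-box bound by basic helix-loop-helix factors) and AGGTCA (the half-site of many nuclear receptors). Capitals mark each match, and GGATTA and TGACCT are the opposite-strand forms of the first and the last.

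Gnat2: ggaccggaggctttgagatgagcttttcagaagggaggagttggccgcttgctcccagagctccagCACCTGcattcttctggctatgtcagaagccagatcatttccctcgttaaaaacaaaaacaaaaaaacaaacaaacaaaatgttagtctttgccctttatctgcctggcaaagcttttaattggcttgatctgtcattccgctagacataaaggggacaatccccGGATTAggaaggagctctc
Opn1sw: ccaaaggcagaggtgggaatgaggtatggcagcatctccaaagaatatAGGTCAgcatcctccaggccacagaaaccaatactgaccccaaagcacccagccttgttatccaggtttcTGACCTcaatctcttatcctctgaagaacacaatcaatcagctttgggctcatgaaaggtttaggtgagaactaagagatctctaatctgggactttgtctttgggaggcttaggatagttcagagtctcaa
Rxrg, first start: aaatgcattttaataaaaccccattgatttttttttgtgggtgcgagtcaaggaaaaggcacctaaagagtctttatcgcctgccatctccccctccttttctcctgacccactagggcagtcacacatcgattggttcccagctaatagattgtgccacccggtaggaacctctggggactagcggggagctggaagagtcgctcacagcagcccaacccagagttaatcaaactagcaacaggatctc
Rxrg, second start: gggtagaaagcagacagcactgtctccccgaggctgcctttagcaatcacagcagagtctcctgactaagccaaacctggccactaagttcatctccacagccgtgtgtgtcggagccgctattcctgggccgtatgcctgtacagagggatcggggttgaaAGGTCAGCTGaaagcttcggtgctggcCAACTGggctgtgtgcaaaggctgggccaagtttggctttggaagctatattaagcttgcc

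The Gnat2 sequence is chr3:108092816-108093065 on the plus strand, and its listed start lies within the annotated gene span. It held GGATTA from 19 to 14 bases before the start and an E-box, CACCTG, from 184 to 179 bases before it. The Opn1sw sequence is chr6:29380514-29380763 on the minus strand. It held AGGTCA from 202 to 197 bases and TGACCT from 132 to 127 bases before the start, and neither of the other motifs. Rxrg has 2 starts in the table, chr1:167598112-167598361 and chr1:167618015-167618264, both on the plus strand. None of the 3 motifs was in the first. The second held AGGTCA from 88 to 83 bases, a CAGCTG that overlaps it from 84 to 79 bases, and CAACTG from 61 to 56 bases before the start. Of the 32851 promoter sequences of this length in the table, 6.25% held TAATCC, 66.2% held CANNTG and 14% held AGGTCA, so an E-box match is what most promoters show. These matches are letters in a window, and no binding was measured.

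All intensities below are scaled so that the median of each array is 100, and differences are on the scale of log2(intensity + 16), which understates changes of dim probe sets. The median deposited intensity of the arrays ran from 45.7 to 216 and the sum from 2478880 to 8639520. The floor of each array is the highest of 13 control probe sets with no added target, and 68.5% to 78.8% of probe sets lay above it. Arrays of a group correlated at 0.980 or more, except that the dimmest array, cortex site 2 replicate 2, correlated with its fellows at 0.940 to 0.945. Every group repeats 1 RNA pool, so p-values and intervals measure technical spread and none of the spread between animals. In bulk tissue, fewer cells of a type and less RNA per cell cannot be told apart. As a check of the tissue labels, Gnat1, which encodes the alpha subunit of rod transducin, had a retina excess of 8.08 ± 0.07 (SE) at the first site and 7.84 ± 0.20 at site 2. All 6 measured cortical neuron markers, Tbr1, Neurod6, Neurod2, Fezf2, Dlx1 and Dlx2, were lower in retina at both sites. Their median difference was -4.82 and -4.78.

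Opn1sw, Gnat2 and Gnb3 were far higher in adult retina than in newborn cortex at both sites, whereas Rxrg was lower in retina at the first site. For the first 3 genes the higher tissue was the one that holds cones, although bulk RNA does not show the cell. For Rxrg the first-site order was the reverse, and its expression in cones was not tested. At the first site limma called 4 of 4 members, against 47.1% of all probe sets (21.9% higher and 25.2% lower in retina). At site 2 it called 3 of 4, all higher, against 32.5% (16.7% higher and 15.9% lower).

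**Figure D1:**
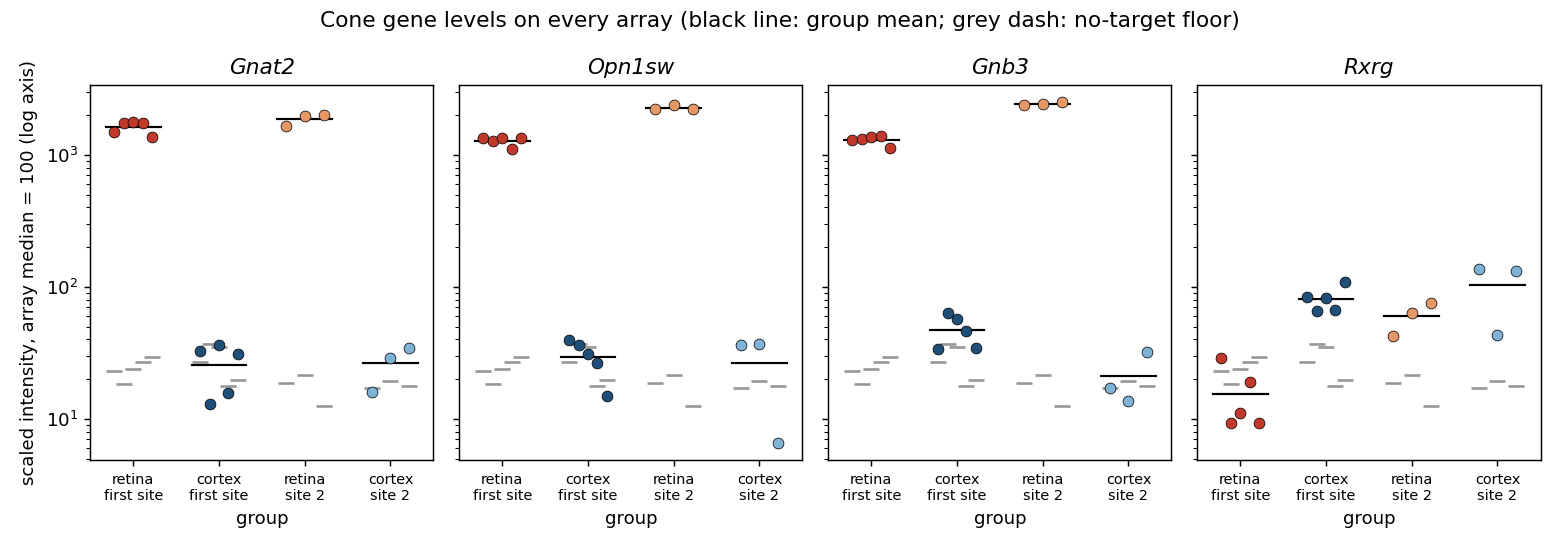
Scaled intensity of the 4 genes on each of the 16 arrays (log axis, array median 100) by tissue and site; points are arrays, black lines group means and grey dashes the no-target floor of each array. Gnat2, Opn1sw and Gnb3 lie above 1000 on every retina array and below 64 on every cortex array, whereas Rxrg lies below 140 on every array.

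Opn1sw, the opsin that starts the cascade, had scaled intensities of 1347, 1272, 1352, 1107 and 1340 on the first-site retina arrays. On the first-site cortex arrays it had 39.6, 36.5, 30.7, 26.5 and 14.9, and 2 of the 5 lay above the floor. At site 2 it had 2226, 2378 and 2240 in retina and 36.2, 37.0 and 6.53 in cortex, where 2 of 3 were above the floor. Every retina array was thus well above every cortex array, and the cortex values lay near the floor or below it. Retina arrays wholly above the cortex arrays were seen for 18% of all probe sets at the first site and 23.1% at site 2. The retina minus cortex difference was 4.91 ± 0.15 (SE, n = 5 and 5, limma adjusted p = 1.1e-13) at the first site. At site 2 it was 6.02 ± 0.42 (n = 3 and 3, limma adjusted p = 3.3e-06).

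Gnat2, which relays the opsin's signal, had scaled intensities of 1500, 1742, 1788, 1741 and 1355 in retina at the first site. In first-site cortex it had 32.7, 12.9, 36.2, 15.7 and 31.0, with 3 of the 5 above the floor. At site 2 the values were 1658, 1957 and 2014 in retina and 16.1, 28.7 and 34.4 in cortex, where 2 of 3 were above the floor. The tissues did not overlap at either site, and the retina ranges of the sites overlapped each other. Gnat2 was higher in retina by 5.37 ± 0.15 (SE, limma adjusted p = 5.1e-14) at the first site, with a 95% interval of 5.05 to 5.69. At site 2 the difference was 5.52 ± 0.23 (limma adjusted p = 9.5e-08).

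Gnb3, the beta subunit that accompanies Gnat2 in cones, had scaled intensities of 1306, 1316, 1357, 1390 and 1130 in retina at the first site. In first-site cortex it had 34.0, 63.2, 56.9, 46.5 and 34.7, all above the floor. At site 2 it had 2405, 2414 and 2513 in retina and 17.2, 13.6 and 32.2 in cortex, where 1 of 3 was above the floor. The retina arrays were again the bright ones, and the site 2 cortex arrays were all dimmer than the first-site cortex arrays. Gnb3 was higher in retina by 4.44 ± 0.13 (SE, limma adjusted p = 7.9e-14) at the first site, or 21.8-fold, and by 6.05 ± 0.17 (limma adjusted p = 1.5e-08) at site 2.

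Because Gnb3 is also known from ON bipolar cells, markers of bipolar cells were read beside it. Of the 6 measured, retina was the higher for 5 and the lower for 1 at the first site, and for 4 and 0 at site 2. Over all genes, 53.4% were called at the first site and 38% at site 2. Pcp2, a Purkinje cell and bipolar cell protein, was higher in retina by 2.72 ± 0.17 and 3.28 ± 0.24 (SE) at the first site and site 2. Prkca, the protein kinase C of rod bipolar cells, was higher by 1.72 ± 0.09 and 1.29 ± 0.16. The other changes were higher values of Isl1, a homeodomain factor of ON bipolar and ganglion cells, at 1.96 and 2.03, of Trpm1, the ON bipolar channel, at 0.54 and 0.57, and of Car8 at 2.28 at the first site. The site 2 call of Trpm1 was lost in 9 of 14 alternatives. Gnao1, a G protein alpha subunit of ON bipolar cells and of neurons in general, was lower in retina by 0.45 at the first site. The summed scaled level of the list was 6116 to 6901 in retina and 5702 to 7172 in cortex at the first site, with no marker under the floor on every array of a group. At site 2 it was 4115 to 5319 in retina and 3695 to 9893 in cortex. Gnao1 made up most of these sums, with a first-site mean of 4299 in retina and 5937 in cortex. The other 5 markers summed to 2081 to 2174 in retina and 429 to 514 in cortex at the first site, and to 1515 to 2110 and 483 to 542 at site 2. The part of bipolar cells in the Gnb3 signal was not tested.

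Rxrg, the nuclear receptor of the list, was dim throughout. Its scaled intensities in first-site retina were 28.9, 9.34, 11.0, 19.1 and 9.31, and 1 of the 5 lay above the floor. In first-site cortex they were 83.4, 65.7, 82.6, 66.7 and 108, all above the floor. Every cortex array was thus above every retina array at that site, a pattern that 20.9% of all probe sets showed. Retina Rxrg fell by 1.70 ± 0.18 below cortex (SE, limma adjusted p = 6.1e-07), with a 95% interval for retina minus cortex of -2.08 to -1.32.

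At site 2 the Rxrg intensities were 42.2, 63.3 and 75.3 in retina and 135, 42.9 and 131 in cortex. Cortex replicate 2, the dimmest array of the study, was among the retina values, and the other cortex arrays were above all of them. Cortex arrays wholly above retina were seen for 24.4% of probe sets at site 2, and Rxrg was not among these. The retina minus cortex difference was -0.64 ± 0.32 (SE, limma adjusted p = 0.18) with a 95% interval of -1.36 to 0.09, which includes 0. Without cortex replicate 2 it was -1.03 (limma adjusted p = 0.0020).

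Markers of the other cells known to hold Rxrg were read in the same arrays, and their part in the Rxrg difference was not tested. Of 10 measured striatal neuron genes, the first site had 6 higher and 2 lower in retina, where 53.4% of all genes were called. The highest were Six3 at 2.53, Isl1 at 1.96 and Drd2, the dopamine D2 receptor, at 1.80, all also known from retina, whereas Foxp1, a striatal and cortical transcription factor, was lower by 2.44. The summed scaled level of that list was 2139 to 2662 in retina and 1596 to 1936 in cortex at the first site, and 2074 to 2385 and 1802 to 2629 at site 2. Zfp503 was under the floor on every array.

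Of 8 measured genes of the oligodendrocyte lineage, 0 were higher and 3 lower in retina at each site, a share no larger than the 53.4% (first site) and 38% (site 2) of all genes called. Pdgfra, the receptor that marks oligodendrocyte precursors, was lower by 1.75 (first site) and 1.22 (site 2), and Sox10 was lower by 0.35 and by 0.98. Cldn11, a myelin junction protein, was lower by at least 2.14-fold at the first site and by at least 3.12-fold at site 2, counting dim values at the floor. The summed level was 836 to 928 in retina and 1594 to 1738 in cortex at the first site, and 845 to 890 and 1350 to 1998 at site 2. The myelin genes Mog and Cnp were under the floor on every array. Mbp, myelin basic protein, differed by 0.14 (95% interval -0.10 to 0.37) at the first site. Of 14 measured skeletal muscle genes, 1 was higher (Mylpf, by 0.37) and 1 lower (Acta1, by 0.67) at the first site, with summed levels of 621 to 761 in retina and 688 to 848 in cortex, and 5 of the 14 were under the floor on every array of either tissue.

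**Figure D2:**
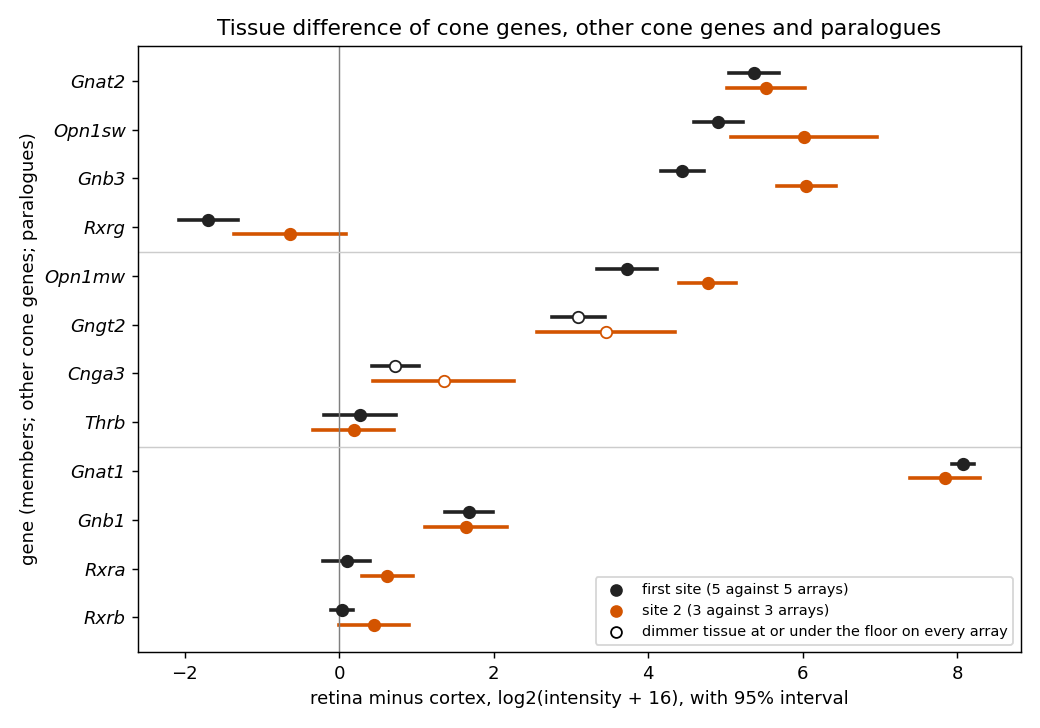
Retina minus cortex in log2(intensity + 16) with 95% intervals for the 4 genes, 4 other cone genes and 4 paralogues, at the first site (black, 5 against 5 arrays) and site 2 (orange, 3 against 3 arrays); open circles mark genes whose dimmer tissue lay at or under the floor on every array. Gnat2, Opn1sw and Gnb3 lie between 4.44 and 6.05 and Rxrg lies below 0, with a site 2 interval that includes 0.

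Of 10 other listed cone genes 4 were measured, and 3 were higher and 0 lower in retina. This held at each site, and the median difference was 1.91 at the first and 2.40 at the other. The median over all genes was -0.04 and -0.01, and 53.4% and 38% of them were called. Retina was also higher for 7 of 7 measured rod cascade genes and 10 of 10 genes that rods and cones share, at each site. The rod cascade medians were 7.74 and 7.52, and those of the shared genes 6.45 and 6.70. Opn1mw, the middle-wavelength cone opsin, had 801, 770, 829, 773 and 786 in retina and 64.3, 16.6, 44.9, 53.3 and 67.4 in cortex at the first site, and it was higher in retina by 3.72 ± 0.18 (SE, limma adjusted p = 4.9e-11). At site 2 it had 1082, 1311 and 1349 in retina and 31.6, 28.4 and 31.1 in cortex, and the difference was 4.77 ± 0.17 (limma adjusted p = 4.7e-08). Both cone opsins were thus bright on every retina array and dim on every cortex array. Gngt2, the cone transducin gamma subunit, averaged 140 in retina and was under the floor on every cortex array, so its excess was at least 3.71-fold at the first site and at least 5.32-fold at site 2.

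Cnga3, the cone channel subunit, was dim even in retina, at a mean of 16.1 at the first site, where 1 of 5 arrays lay above the floor, and 38.4 at site 2. It was higher in retina by limma at both sites (adjusted p = 0.00047 and 0.028), yet its first-site retina mean did not exceed the cortex floor. The site 2 excess was at least 1.57-fold, and its call was lost in 5 of 14 alternatives. Thrb, the thyroid hormone receptor whose second isoform directs cone opsin choice, differed by 0.26 ± 0.22 (SE, limma adjusted p = 0.37) and 0.18 ± 0.24 (limma adjusted p = 0.68). The probe set is named for the gene and says nothing of the isoform.

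The members were then set beside their own gene families. Among the 13 other G protein alpha subunits measured, retina was higher for 2 and lower for 9 at the first site, and higher for 1 and lower for 6 at site 2, against 53.4% and 38% of all genes called in either direction. Gnat1, the rod counterpart of Gnat2, and Gna14 were the higher ones at the first site, though Gna14 was there under the floor in both tissues. Gnai1 was lower by 1.73, Gnai3 by 1.50 and Gna12 by 1.12. The median of the list was -0.33 at the first site and -0.59 at site 2.

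Among 11 other beta and gamma subunits, retina was higher for 4 and lower for 7 at the first site, and higher for 3 and lower for 6 at site 2, again against 53.4% and 38%. Gnb5, the beta subunit that stabilises the transducin shutoff protein Rgs9, was higher by 3.15 ± 0.08 and 2.92 ± 0.16 (SE), and Gng2 and Gng10 were lower by 2.83 and 2.51 at the first site. Gnb1, the rod counterpart of Gnb3, was higher in retina by 1.68 ± 0.15 and 1.64 ± 0.24 on its brightest probe set, by 2.60 ± 0.07 and 1.88 ± 0.16 on another, and differed by -0.19 ± 0.18 and -0.11 ± 0.30 on the third. The probe sets of Gnb1 therefore disagree, and each of the 4 members is read by a single probe set that allows no such check.

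The other retinoid X receptors gave mixed values. Rxrb, which is expressed in most tissues, differed by 0.03 ± 0.07 (SE, limma adjusted p = 0.73) at the first site and 0.45 ± 0.20 (limma adjusted p = 0.12) at site 2. Rxra, the third receptor of the family, gave 0.10 ± 0.14 (limma adjusted p = 0.63) and 0.62 ± 0.15 (limma adjusted p = 0.0090) on its brighter probe set, and -1.75 ± 0.12 (limma adjusted p = 3.7e-09) and -0.14 ± 0.16 on the other. At the first site only the dimmer Rxra probe set was thus called, as lower in retina. At site 2 the brighter one was called, as higher in retina, while the dimmer one lay within 1 SE of 0. The probe sets therefore did not give the same result at either site. Of the 13 measured relatives and pairing partners, 5 were higher and 2 lower in retina at each site, where 53.4% and 38% of all genes were called, so the first-site share was that of the array as a whole. Nr4a2, an orphan receptor that pairs with retinoid X receptors, was lower by 1.93 and 1.80, whereas Nr4a1 was higher by 1.27 and 1.60. The fatty acid receptor Ppara was higher by 1.56 and 0.84. The oxysterol receptor Nr1h3 was under the floor on every first-site cortex array, so its excess there was at least 1.51-fold. At site 2 Nr1h3 was higher by 1.17.

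Of 13 measured photoreceptor transcription factors, retina was higher for 7 and lower for 4 at the first site, and for 6 and 4 at site 2, where 53.4% and 38% of all genes were called. Crx, the homeodomain factor of rods and cones, was higher by 5.26 ± 0.10 and 5.63 ± 0.15 (SE). Nrl, which directs rod fate, was at least 7.79-fold higher at the first site, and Neurod1, a basic helix-loop-helix factor of photoreceptors, was higher by 3.52 and 3.21. Nr2f1, an orphan receptor of developing cortex and retina, was lower by 2.58 and 3.07.

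The retina RNA was measured at both sites, so the members could be compared on the same tissue. Of the members, 3 were higher at site 2, and Gnat2 was not called. limma called 3 of 4 members, all higher, against 35.7% of all probe sets (23.2% higher and 12.5% lower). Arrays that do not overlap, with site 2 higher, were found for Opn1sw, Gnb3 and Rxrg and for 26.9% of all probe sets, and 17.7% had site 2 lower. Gnb3 was higher by 0.90 ± 0.16 (SE, limma adjusted p = 0.00018), or 1.87-fold, and all 3 site 2 arrays lay above all 5 first-site arrays. Rxrg was higher by 1.33 ± 0.26 (limma adjusted p = 0.00053), from a level under the floor on 4 of 5 first-site arrays, so no fold is given. Opn1sw was higher by 0.82 ± 0.30 (limma adjusted p = 0.039), or 1.76-fold. That call is close to the threshold and was lost when any of 7 of the 8 retina arrays was left out, all but first-site replicate 1 (adjusted p from 0.052 to 0.11), while a fit of the 8 retina arrays alone gave 0.82 ± 0.09 (limma adjusted p = 1.0e-05). Gnat2 differed by 0.20 ± 0.20 (limma adjusted p = 0.49), with a 95% interval of -0.21 to 0.62. Without centring of the arrays, which moved all differences between retina sites by -0.06, 0 of 4 members were called, and their differences were 0.84 for Gnb3, 1.27 for Rxrg and 0.76 for Opn1sw.

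**Figure D3:**
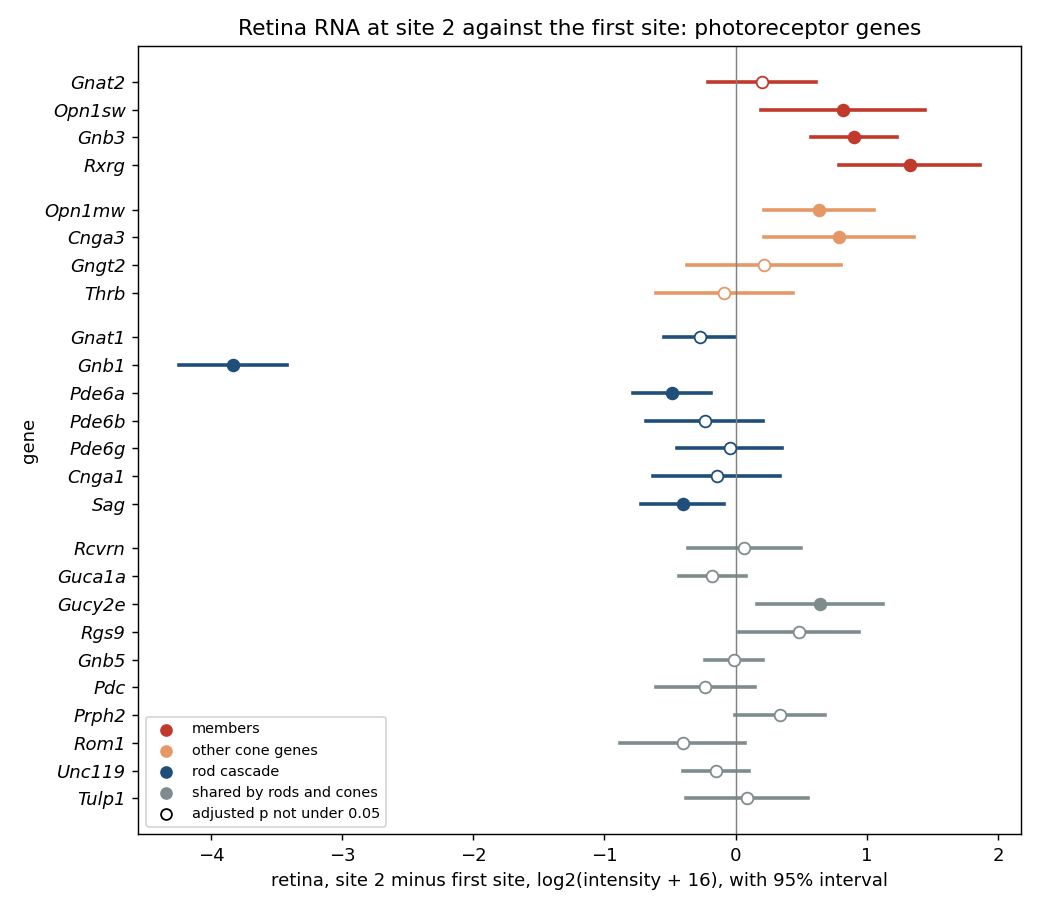
Retina at site 2 minus retina at the first site in log2(intensity + 16) with 95% intervals, for the 4 genes (red), other cone genes (orange), rod cascade genes (blue) and genes shared by rods and cones (grey); open circles were not called by limma. Opn1sw, Gnb3 and Rxrg lie at 0.82, 0.90 and 1.33, Gnat2 at 0.20, and the brightest probe set of the rod gene Gnb1 at -3.83.

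The other cone genes and the rod genes were read in the same comparison. Of all genes, 38.3% were called between retina sites. Of the 4 other cone genes, 2 were higher and 0 lower at site 2, namely Opn1mw by 0.63 ± 0.20 (SE, limma adjusted p = 0.018) and Cnga3 by 0.79 ± 0.27 (limma adjusted p = 0.031). Of 7 measured rod cascade genes, 0 were higher and 3 lower, which were Gnb1 by 3.83 on its brightest probe set, Pde6a by 0.49 and Sag by 0.40, encoding the rod beta subunit, a rod phosphodiesterase subunit and rod arrestin. These 3 of 7 are close to the share of all genes, and the same Gnb1 probe set also fell by 3.80 between the cortex sites. The other rod genes, Gnat1, Pde6b, Pde6g and Cnga1, had differences of -0.28, -0.24, -0.05 and -0.15 and were not called. Of 10 measured genes that rods and cones share, 1 was higher (Gucy2e, a guanylate cyclase, by 0.64) and 0 were lower, and Pdc, Rom1, Rcvrn and Tulp1 differed by -0.23, -0.40, 0.07 and 0.09. Single alternatives ended several of these calls, in 5 of 17 for Opn1mw, 6 of 16 for Cnga3, 11 of 17 for Sag, 2 of 17 for Pde6a and 5 of 16 for Gucy2e. The difference between the cone and the rod genes was not tested. Of the 6 measured bipolar cell markers, 0 were higher and 3 lower at site 2, where 38.3% of all genes were called. Leaving out single arrays gave 1 to 3 lower. The part of bipolar cells in the Gnb3 difference between retina sites was not tested. Of 13 measured photoreceptor transcription factors, 4 were higher and 4 lower at site 2, where 38.3% of all genes were called. Crx was higher by 0.51 (limma adjusted p = 0.0035), whereas Neurod1 was lower (limma adjusted p = 0.0082).

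In cortex, limma called 1 of 4 members between sites, against 16.7% of all probe sets (10.3% higher and 6.4% lower at site 2). Gnb3 was lower at site 2 by 0.70 ± 0.16 (SE, limma adjusted p = 0.0045), and its site 2 arrays lay wholly below the first-site arrays, as did those of 9.21% of all probe sets. In a fit of the 8 cortex arrays alone the difference was the same and the limma adjusted p was 0.081. Gnat2, Opn1sw and Rxrg differed by 0.05, -0.29 and 0.26, with 95% intervals of -0.36 to 0.46, -0.91 to 0.34 and -0.28 to 0.80. Without cortex site 2 replicate 2, Rxrg was higher at site 2 by 0.66 (limma adjusted p = 0.032).

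Whether the tissue difference itself differed between sites was tested as an interaction, where limma called 1 of 4 members against 3.36% of all probe sets (2.07% higher and 1.3% lower). The retina minus cortex difference of Gnb3 was larger at site 2 by 1.60 ± 0.22 (SE, limma adjusted p = 0.00020). That sum came from both tissues, with retina higher by 0.90 and cortex lower by 0.70 at site 2, and the cortex values lay near the floor. Opn1sw had an interaction of 1.11 ± 0.42 (limma adjusted p = 0.17) with a 95% interval of 0.22 to 1.99, and 1.50 (limma adjusted p = 0.029) without cortex site 2 replicate 2. Rxrg had 1.06 ± 0.37 (limma adjusted p = 0.12) with an interval of 0.30 to 1.83. Gnat2 had 0.15 ± 0.28 (limma adjusted p = 0.89) with an interval of -0.43 to 0.74. Without centring, which moved all interactions by -0.14, the Gnb3 value was 1.46 (limma adjusted p = 0.62).

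In the order of the 4 group levels, Gnat2, Opn1sw and Gnb3 were highest in site 2 retina, then first-site retina, then the cortex groups. For Gnat2 neither the retina groups nor the cortex groups could be told apart, and for Opn1sw the cortex groups could not (0.29, 95% interval -0.34 to 0.91). All neighbours differed for Gnb3, although its cortex values lay near the floor and the cortex call was lost in 2 of 17 alternatives. The Opn1sw call between the retina groups was lost in 10 of 17. Rxrg was highest in site 2 cortex, followed by first-site cortex, site 2 retina and first-site retina. Of its neighbours, only site 2 retina over first-site retina differed, since first-site cortex exceeded site 2 retina by 0.37 (95% interval -0.17 to 0.91, limma adjusted p = 0.25).

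The difference between members on the same retina array does not depend on how arrays are scaled, although its sign has no meaning across probe sets. Opn1sw minus Gnat2 averaged -0.33 ± 0.25 (SD, n = 5) at the first site and 0.28 ± 0.14 (SD, n = 3) at site 2. The first-site arrays ran from -0.65 to -0.02 and the site 2 arrays from 0.15 to 0.42, so they did not overlap. The shift was 0.62, or 1.53-fold (exact permutation test over 56 regroupings, two-sided p = 0.036, adjusted over the 3 pairs 0.054). Gnb3 minus Gnat2 moved from -0.31 ± 0.09 to 0.38 ± 0.13, again without overlap, by 0.70, or 1.62-fold (exact permutation p = 0.018, adjusted 0.054). A p of 0.018 is the smallest that 5 against 3 arrays can give. For a single pair it adjusts to 0.054 over the 3 pairs, so no pair could pass on its own. Gnb3 minus Opn1sw moved by 0.08 (exact permutation p = 0.55), and its first-site arrays, from -0.24 to 0.33, spanned the site 2 values of 0.02 to 0.17. Relative to Gnat2, both Opn1sw and Gnb3 were therefore brighter on every site 2 retina array than on any first-site one, but neither pair passed after adjustment.

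**Figure D4:**
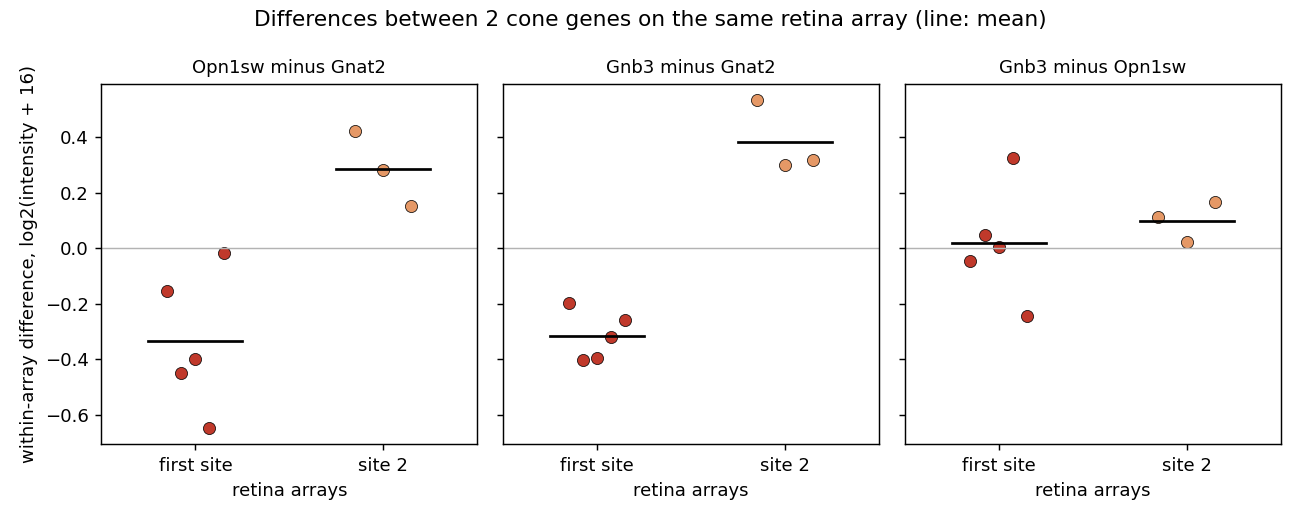
Differences in log2(intensity + 16) between 2 cone genes on the same retina array, for 5 first-site arrays (red) and 3 site 2 arrays (orange), with lines at the group means. Opn1sw minus Gnat2 and Gnb3 minus Gnat2 lie below 0 on every first-site array and above 0 on every site 2 array, while Gnb3 minus Opn1sw overlaps between sites.

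Across the 16 arrays the likeness of patterns was measured as the root mean square distance between centred log2 values, each probe set taken about its own mean. This is a description with no test, since the arrays come from only 2 pools. Gnat2, Opn1sw and Gnb3 lay 0.51 to 0.59 from each other and 3.22 to 3.42 from Rxrg. Among 8250 other genes, the nearest to Gnat2 were Hk2 at 0.21, Crx at 0.38 and Pde6a at 0.41, against a median distance of 2.76 over all genes. Nearest to Opn1sw were Crx at 0.46, Gnb3 at 0.53 and Pde6a at 0.55, and nearest to Gnb3 were Crx at 0.44, Aqp1 at 0.47 and Gnat2 at 0.51. Rxrg lay closest to Twf2 at 0.27, Ptprs at 0.28 and Hyal2 at 0.29, where the median was 0.95.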

How the data were processed

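Gene names came from the platform annotation, checked through Entrez identifiers against RefSeq (GRCm38.p6). The authors deposited linear intensity values, already summarised to 1 value per probe set, and the algorithm, with its background handling and scaling, is not given in the sources used here. Of 12488 probe sets, 66 controls were left out. Values were taken as log2(intensity + 16) and centred by array on the median. limma 3.58.1 in R 4.3.3 (lmFit, eBayes with an intensity trend) gave two-sided p-values, Benjamini-Hochberg adjusted over 12422 probe sets, with calls at 0.05. Tissues were compared within each site. Site differences and the interaction came from a fit of all 16 arrays. Within-array differences were tested by exact permutation. A gene with several probe sets is represented by the brightest over all arrays. Where the dimmer tissue was under the no-target floor on every array, a fold is a lower bound computed with those values raised to the floor.

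The members and all 14 lists were chosen with earlier results of these data known. Genes named are the members, their paralogues, every gene of a list with 6 or fewer measured, otherwise the 4 with the largest first-site difference and the 1 most opposed to the list's median, and the 3 nearest genes by pattern; of the muscle and pigment epithelium lists only a few genes are named. Gucy2e, Cnga1, Gna14, Mog, Cnp, Zfp503, Mylpf, Acta1 and Tyr were named after their values were seen. Alternatives were a pseudocount of 1 or 50, uncentred or quantile normalized arrays, scaling before the pseudocount, bright probe sets only, a fit without the intensity trend, a block for the replicate number, a single fit of all arrays, averaged probe sets for the lists and omission of each array. After the data were seen, fits of a single tissue and the within-array differences were added. Simulated arrays were used to test the procedure. Replicate numbers did not pair the arrays, since same-numbered arrays of the tissues deviated with correlations of -0.06 to 0.06 at the first site and 0.06 to 0.18 at site 2.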

Additional observations from a re-analysis of the deposited data

Results flagged for a closer look

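The retina minus cortex difference of Gnb3 was larger at site 2 than at the first site by 1.60 on the log2 scale (limma interaction, adjusted p = 0.00020). Opn1mw, the middle-wavelength cone opsin, showed the same kind of difference between sites, at 1.05 (limma interaction, adjusted p = 0.046). Only the members, the other cone genes and the rod cascade were screened for this flag, and other lists also held interaction calls. Of 6 bipolar markers 0 were higher and 1 was lower (Car8, limma interaction, adjusted p = 3.3e-06). Of 13 photoreceptor transcription factors 1 was higher and 2 were lower, where 3.78% of all genes were called. Of the alternatives for the Gnb3 interaction, 23 of 24 kept the call, all but the fit without centring, and values ran from 1.30 to 2.07. The Opn1mw call was lost in 19 of 24, with adjusted p from 0.058 to 1.0, and in 14 of these by leaving out a single array.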

How the results depend on the processing

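At the first site, each member kept its direction and its call under every alternative run, with Gnat2 from 4.55 to 6.03, Opn1sw from 4.16 to 5.46, Gnb3 from 3.88 to 4.80 and Rxrg from -2.43 to -1.07; Rxrg could not be tested among bright probe sets only. At site 2 the same held for Gnat2 (4.74 to 6.16), Opn1sw (5.16 to 6.72) and Gnb3 (5.19 to 6.87). Without centring, limma called 781 probe sets between the tissues at site 2, 34 for the interaction, 290 between retina sites and 79 between cortex sites, and 0 members in each of the last 3. The cause was not tested. Without the intensity trend 255 were called for the interaction, and with the cortex arrays alone 1120 between cortex sites, with 0 members. With pseudocount 1 the Opn1sw difference between retina sites was 0.83 (limma adjusted p = 0.12). With the replicate number as a block, Rxrg at site 2 was -0.64 (limma adjusted p = 0.046), and no other member's call changed. Quantile normalization turned the retina site difference of Gnai1 to -0.20, and Rcvrn between cortex sites was -0.41 and 0.29 without cortex site 2 replicate 2 and 3. Rcvrn was under the floor on every cortex array, so its change of sign carries no meaning. Leaving out single arrays gave 5576 to 5936 calls at the first site, 3062 to 5946 at site 2, 212 to 671 for the interaction, 3286 to 4179 between retina sites and 1480 to 4976 between cortex sites. The highest count at site 2, for the interaction and between cortex sites came without cortex site 2 replicate 2. Members called were then 4 to 4, 3 to 4, 1 to 2, 2 to 3 and 1 to 2. The number of arrays limits the precision. Cortex values of Gnat2, Opn1sw and Gnb3 and first-site retina values of Rxrg lay near the floor, where fold changes are least certain.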

Other observations

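Genes of thyroid hormone action, a pathway that sets which opsin a cone makes, were read beside the members, and 6 of 10 were measured. At the first site 1 was higher and 2 were lower in retina, and at site 2 there were 0 higher and 2 lower, which is no more than the 53.4% and 38% of all genes called. Thra, the widely expressed thyroid hormone receptor, was lower by 1.24 ± 0.09 (SE) and by 0.85 ± 0.19. Ttr, a carrier of thyroid hormone, was lower by 0.30 and by 0.50, calls that were lost in 6 of 19 and 10 of 15 alternatives. Dio2, the enzyme that activates the hormone, rose by 0.65 ± 0.09 at the first site, while its site 2 difference was 0.38 ± 0.26. Crym, Thrb and the coactivator Ncoa1 had differences of 0.14, 0.26 and 0.18 at the first site and were not called there.

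Markers of the pigment epithelium, the layer behind the photoreceptors that recycles the chromophore of opsins, were also read in these arrays. Of 10 measured, retina was higher for 8 and lower for 1 at the first site, and for 7 and 1 at site 2, against 53.4% and 38% of all genes called. Their summed scaled level was 4180 to 4641 on the first-site retina arrays and 952 to 1160 on the first-site cortex arrays. Rlbp1, a retinoid carrier that Mueller glia also hold, averaged 2835 ± 221 (SD, n = 5) of the retina sum, and the other 9 genes summed to 1442 to 1709 in retina and 657 to 819 in cortex. Rgr, an opsin-like protein of pigment epithelium and Mueller glia, was at least 6.07-fold higher in first-site retina. Tyr, the pigment enzyme tyrosinase, was near the floor in both tissues and differed by 0.06 ± 0.16 (SE) at the first site. Between retina sites 0 of the 10 were higher and 1 was lower, where 38.3% of all genes were called. The lower one was Tyr, above the floor on 3 of 5 first-site and 1 of 3 site 2 retina arrays. Its call was lost in 5 of 16 alternatives.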
